A study of Mus musculus with 8 samples.

Results

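The 8 genes described here lie side by side on mouse chromosome 11 around C1qtnf1, a gene that stood apart in beta cells after deletion of Chd4. The members are C1qtnf1, Gm11747, Timp2, Lgals3bp, Cant1, Engase, Usp36 and Cyth1, 8 of the 55487 genes in the files. C1qtnf1 was chosen because its values differed between the groups in these libraries, and Gm11747 overlaps it on the opposite strand. The difference of these 2 genes is therefore given as a description, with no test. The other 6 were listed by their position next to C1qtnf1, with earlier results of these data known.

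RNA was sequenced from beta cells, which make and secrete insulin, after islets had been dispersed and sorted by flow cytometry. Chd4KO mice, whose beta cells had lost Chd4 (written Chd4Db in the series design), gave 4 libraries and Control mice gave 4. Mice of both groups had received tamoxifen. The sources used here do not give the age of the mice, the promoter that drove the deletion or the genotype of the Control mice beyond that word. Each title carries a number of its own, which the labels do not explain, and libraries were taken as separate samples. The numbers are higher in every Chd4KO title than in every Control title, so whatever they mark cannot be told apart from genotype.

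CHD4 is an ATP-driven enzyme that slides nucleosomes and serves as the motor of the NuRD complex. That complex also removes acetyl groups from histones and is best known for keeping genes silent. Genes that sit next to each other on a chromosome can share enhancers or lie in the same stretch of closed chromatin, and can also be controlled independently of their neighbours. C1qtnf1 encodes CTRP1, which cells release into the blood and which has a collagen-like stem and a globular C1q head, as adiponectin has.

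Chd4 itself (ENSMUSG00000063870) averaged 5.60 ± 2.40 TPM in Chd4KO and 13.2 ± 2.08 TPM in Control (SD, n = 4 each), and no Chd4KO library reached the lowest Control library (two-sided exact permutation p = 0.0286, which is the lowest value that 4 against 4 libraries can give). In the fit across all genes the log2 difference of Chd4 was -1.18 ± 0.29 (SE, limma adjusted p = 0.0725). TPM is an expression level corrected for gene length and scaled to the same total in every library. Reads in genes numbered 14.9 to 20.2 M in Chd4KO libraries and 16.4 to 41.0 M in Control libraries. Insulin transcripts took 32.4 to 62.0% of TPM in Chd4KO and 38.1 to 41.8% in Control, with the highest share in Chd4KO replicate 4. All 9 beta cell markers were tested, and 2 were called (limma adjusted p under 0.05), Mafa and Slc2a2, which fell. Of all tested genes 2.97% were called. Nkx6-1 and G6pc2 were also lower in every Chd4KO library but were not called (log2 difference -0.81 and -0.59, limma adjusted p = 0.0554 and 0.203). Such a separation downward held for 11.3% of all tested genes. Pdx1 (-0.34), Ucn3 (-0.91), Ins1 (0.05), Ins2 (0.10) and Iapp (0.08) were not called either. The 12 acinar markers, of the enzyme-secreting cells around the islets, summed to 28452 TPM in Chd4KO replicate 2 and to 3.02 to 159 TPM in the other Chd4KO libraries, against 1183 TPM in Control replicate 2 and 5.20 to 136 TPM in the other Control libraries. Of the 5 alpha cell markers 3 were tested and 0 were called. Of the 4 delta cell markers 3 were tested and 1 was called, Rbp4, which rose. Sst (log2 difference -0.007) and Hhex (-0.35) were not called. Of the 6 ductal markers 4 were tested and 1 was called, Cftr, which fell. Krt7 (-0.17), Spp1 (0.39) and Muc1 (0.92) were not called. In sorted bulk samples, fewer cells of a type and less RNA per cell cannot be told apart.

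The 8 genes span 357 kb (GRCm38, the build also called mm10). Along the chromosome they run Cyth1 (118132019 to 118248592), Usp36 (118259651 to 118290244), Timp2 (118301069 to 118355740), Lgals3bp (118392751 to 118402092), Cant1 (118406289 to 118419086), C1qtnf1 (118428203 to 118449963), Gm11747 (118444200 to 118454995) and Engase (118476829 to 118489209). C1qtnf1 and Engase are on the plus strand and the other 6 members on the minus strand. Cant1 and C1qtnf1 are therefore divergent neighbours that are transcribed away from each other, with start sites 9117 bp apart. The start of Lgals3bp lies 26.1 kb from that of C1qtnf1, that of Engase 48.6 kb, that of Timp2 72.5 kb, that of Usp36 138 kb and that of Cyth1 180 kb. GENCODE M21 lists 4 more genes inside the span, Gm24060, Gm11737, Cep295nl and Gm11748, which are not members. They stayed at or below 5.81 TPM in every library, and Cep295nl, which lies inside a Timp2 intron, at or below 0.143 TPM.

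**Figure D1:**
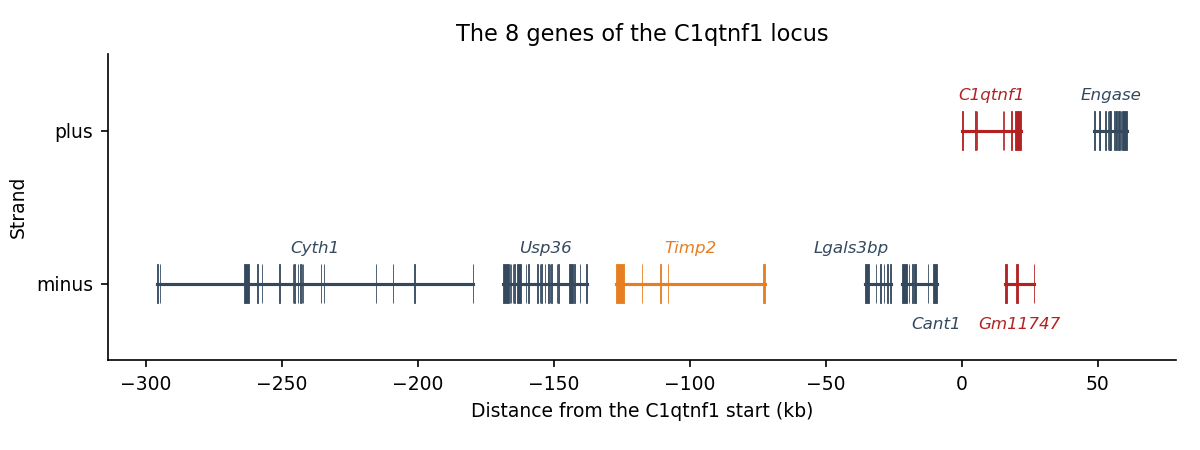
The 8 genes drawn to scale by distance from the C1qtnf1 start in kb, plus strand above and minus strand below, with exons as boxes, the C1qtnf1 pair in red and Timp2 in orange. C1qtnf1 and Gm11747 overlap, Cant1 starts 9117 bp from C1qtnf1 in the opposite direction, and Timp2 starts 72.5 kb away with Lgals3bp and Cant1 between them.

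The sequences before the start sites show how differently the members begin. RefSeq promoters (GRCm38.p6) were matched for 6 of the 8 members, and C1qtnf1 and Cant1 are named only. Shown 5′ to 3′ are the 250 bases before the RefSeq start of Timp2, the neighbour that rose, of Gm11747, the antisense partner of C1qtnf1, and of Lgals3bp, the member with the highest level, all on the minus strand. The distances above used GENCODE starts, and the RefSeq starts of Timp2 and Lgals3bp lie inside those GENCODE gene bodies. The Timp2 window falls wholly within the GENCODE gene, which ends at 118355740. The Lgals3bp window falls partly within its gene, which ends at 118402092. Capitals mark GC boxes, searched as GGGCGG on both strands.
Timp2 (chr11:118355412-118355661): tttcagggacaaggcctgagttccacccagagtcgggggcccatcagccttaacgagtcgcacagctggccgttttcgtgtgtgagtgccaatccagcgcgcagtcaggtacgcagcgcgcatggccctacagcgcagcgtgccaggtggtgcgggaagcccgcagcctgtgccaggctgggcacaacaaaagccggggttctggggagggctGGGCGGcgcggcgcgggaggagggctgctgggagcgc
Gm11747 (chr11:118454996-118455245): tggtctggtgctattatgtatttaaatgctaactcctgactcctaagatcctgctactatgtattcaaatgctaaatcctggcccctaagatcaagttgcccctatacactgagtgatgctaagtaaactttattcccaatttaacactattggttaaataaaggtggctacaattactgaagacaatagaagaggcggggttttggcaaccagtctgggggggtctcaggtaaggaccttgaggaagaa
Lgals3bp (chr11:118401960-118402209): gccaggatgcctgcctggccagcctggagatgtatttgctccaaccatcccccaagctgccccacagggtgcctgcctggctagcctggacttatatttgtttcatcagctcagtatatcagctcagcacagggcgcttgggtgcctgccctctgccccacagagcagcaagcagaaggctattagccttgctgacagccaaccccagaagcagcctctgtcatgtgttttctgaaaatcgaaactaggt
The Timp2 window holds 1 GC box and 21 CG dinucleotides and is 68.0% G and C. Of 32851 RefSeq promoter windows of this length, 16.3% held at least 21 CG dinucleotides, and the median window held 6 at 52.4% G and C. The Gm11747 window holds 1 CG dinucleotide at 41.6% G and C, and the Lgals3bp window 2 at 55.6%. Neither has a GC box, which 32.7% of all windows have. Among the other members, the Usp36 window holds 28 CG dinucleotides, the Engase window 13 and the 3 Cyth1 windows 29, 4 and 3. Neither a TATA box (TATAAA, in 12.4% of windows) nor the homeodomain core TAATTA (in 4.84%) was found on either strand in any window of the 6 members. Timp2 and Lgals3bp thus lie next to each other with very different CG content, and Usp36, with 28 CG dinucleotides, is the neighbour of Timp2 on its other side.

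C1qtnf1 (ENSMUSG00000017446) was low in every Control library and abundant in every Chd4KO library. It had 426, 93.2, 272 and 108 TPM in Chd4KO replicates 1 to 4, against 1.22, 1.19, 1.63 and 1.32 TPM in Control replicates 1 to 4. All 4 Chd4KO libraries were far above all Control libraries, which lay within 1.37-fold of each other. The means were 225 ± 157 TPM in Chd4KO and 1.34 ± 0.204 TPM in Control (SD, n = 4 each), 168-fold apart, with a log2 difference of 6.32 on the log2(TPM + 1) scale used throughout. This scale understates the change of low genes. Among the genes of a library ranked by TPM, C1qtnf1 was 135th, 962nd, 204th and 501st in Chd4KO, against 14753rd, 14746th, 13452nd and 14131st in Control. It rested on 2061 to 9658 recovered reads in Chd4KO libraries and on 27 to 69 in Control libraries.

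The C1qtnf1 level also spread widely among the Chd4KO libraries, by 4.57-fold. Replicates 1 and 3 were high, replicates 2 and 4 low. Chd4 had 8.38, 6.18, 5.27 and 2.59 TPM in Chd4KO replicates 1 to 4, so the library with the most Chd4 transcript also had the most C1qtnf1, and the one with the least Chd4 did not have the least C1qtnf1. Insulin took 36.4, 32.4, 47.0 and 62.0% of TPM in these 4 libraries. When TPM was rescaled without islet hormones and mitochondrial genes, C1qtnf1 was at 749, 158, 579 and 321 TPM in Chd4KO replicates 1 to 4, against 2.19 to 3.13 TPM in Control. Replicate 2, which held the acinar transcripts, had the lowest C1qtnf1 on both scales. Chd4, rescaled in the same way, was at 14.7, 10.5, 11.2 and 7.69 TPM in Chd4KO replicates 1 to 4, still highest in replicate 1 and lowest in replicate 4. Without Chd4KO replicates 2 and 4 the log2 difference of C1qtnf1 was 7.19.

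Gm11747 (ENSMUSG00000086514), a gene annotated as antisense to C1qtnf1 with no role named here, followed it closely. It had 384, 90.1, 264 and 109 TPM in Chd4KO replicates 1 to 4, against 0.343, 0.950, 1.91 and 0.988 TPM in Control replicates 1 to 4. The groups did not overlap, the order of the Chd4KO libraries was that of C1qtnf1, and the log2 difference was 6.50. All 4 Chd4KO libraries passed the filter of 1 TPM in 4 libraries and 1 Control library did, so Gm11747 reached the fit through the group in which it was high. C1qtnf1 was above 1 TPM in all 8 libraries.

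The values of the pair cannot be separated by strand, because the library kit does not mark it. Of the 1648 exonic bases of Gm11747, 642 (39.0%, chr11:118448130-118448771) lie within the last exon of C1qtnf1, where 219 of them are among its 843 coding bases. The remaining 1006 exonic bases of Gm11747 do not overlap C1qtnf1 exons, but not all of them lie outside the C1qtnf1 gene. The last exon of Gm11747 lies within a C1qtnf1 intron, and only the exon at the start of Gm11747 lies outside that gene. Whether reads in the last exon of Gm11747 came from unspliced C1qtnf1 transcript was not tested. In Chd4KO, Gm11747 had 0.902, 0.967, 0.969 and 1.01 times the TPM of C1qtnf1 in replicates 1 to 4, or 47.5 to 52.9 reads for every 100 of C1qtnf1. In Control the ratio of TPM ran from 0.281 to 1.17, on 4 to 37 reads of Gm11747. The 2 genes were thus near equal per length in every Chd4KO library, and in Control the ratios varied on few reads. The sources used here do not say how reads in the shared 642 bases were counted.

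**Figure D2:**
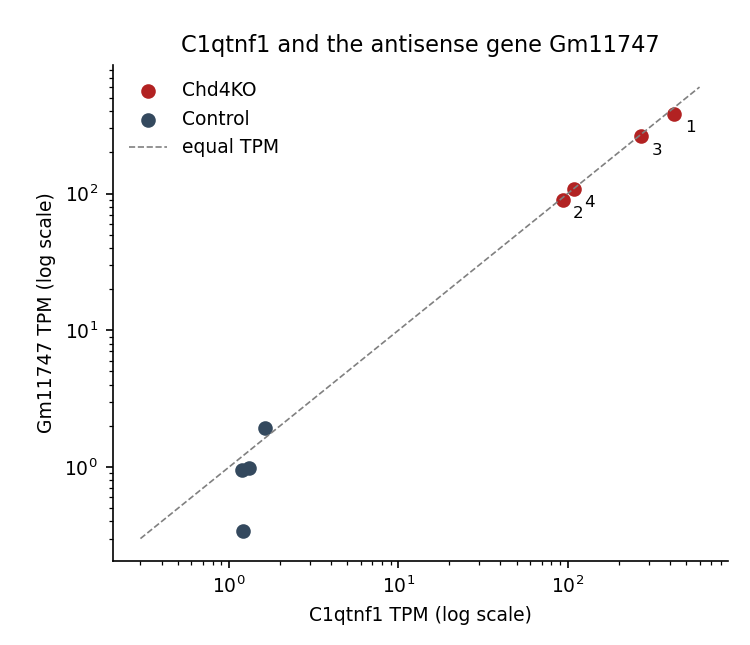
Gm11747 TPM against C1qtnf1 TPM in each library, both on log axes, with Chd4KO in red (numbers are replicates), Control in dark blue-grey and a dashed line of equal TPM. The Chd4KO libraries lie along the line between 90.1 and 426 TPM, and no Control library exceeds 1.91 TPM for either gene.

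Timp2 (ENSMUSG00000017466), an inhibitor of matrix metalloproteinases that also helps to activate MMP2, was the other member that was higher in every Chd4KO library. It had 23.1, 21.7, 17.2 and 8.82 TPM in Chd4KO replicates 1 to 4, against 3.66, 5.60, 4.53 and 4.73 TPM in Control replicates 1 to 4. The groups did not overlap, and Chd4KO replicate 4 came closest to Control. The means were 17.7 ± 6.42 TPM in Chd4KO and 4.63 ± 0.795 TPM in Control (SD, n = 4 each), 3.82-fold apart. In the fit across all genes Timp2 rose by 1.66 ± 0.29 (log2, SE), with a limma adjusted p of 0.0187. It was the 1 of 6 neighbours that was called at an adjusted p under 0.05, where 2.97% of all 15189 tested genes were called, 1.53% higher and 1.44% lower. It was also the 1 of 6 whose Chd4KO libraries were all above the Control libraries, which held for 3.54% of all tested genes. The direction was the same in 19 of 19 alternatives (log2 difference 1.51 to 1.94), but the call held in 11, and the adjusted p ran from 0.000270 to 0.192. The call was lost without Chd4KO replicate 1, 2 or 3 (limma adjusted p = 0.0525, 0.0578 and 0.0858) and without Control replicate 1, 2, 3 or 4 (0.0731, 0.0632, 0.0693 and 0.0751). Without Chd4KO replicate 4 the limma adjusted p was 0.00168. Without the 2 libraries that held the most acinar transcript it was 0.192, at a log2 difference of 1.62. That smaller fit called 43 genes in all, against 451 with all 8 libraries.

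Timp2 is also made by mesenchymal cells, endothelial cells and macrophages, whose markers were looked at beside it. All 10 mesenchymal markers, among them Col1a1, Pdgfra and Dcn, stayed under 1 TPM in every library and summed to 0.958 to 1.74 TPM in Chd4KO and 0.207 to 0.923 TPM in Control. The 8 endothelial markers summed to 6.41 to 9.66 TPM in Chd4KO and 5.60 to 6.10 TPM in Control, with Cdh5, Kdr, Tie1 and Emcn under 1 TPM in every library. The 10 macrophage markers summed to 76.2 to 153 TPM in Chd4KO and 104 to 131 TPM in Control. Most of each sum was C1qa, at 55.1 to 133 TPM in Chd4KO and 92.2 to 121 TPM in Control. Ptprc, Adgre1, Cd14 and Itgam stayed under 1 TPM in every library. Of the 10 macrophage markers 5 were tested and 1 was called, as 2.97% of all tested genes were. It was Cd68, which rose by 1.22 (log2, limma adjusted p = 0.0132). Csf1r (-0.10), Lyz2 (0.15), C1qa (-0.04) and C1qb (0.39) were not called. The 2 endothelial markers that were tested went opposite ways and were not called. Egfl7 was higher in every Chd4KO library (log2 difference 0.74, limma adjusted p = 0.0733), and Esam was lower in every Chd4KO library (-0.25, adjusted p = 0.477). Such separations held for 3.54% of all tested genes upward and 11.3% downward. The mesenchymal and endothelial sums were higher in every Chd4KO library, as Timp2 was, and their part in its difference was not tested.

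Lgals3bp (ENSMUSG00000033880), a secreted glycoprotein that binds galectin-3, was the most abundant member in every library but did not pass the test. It had 494, 858, 370 and 271 TPM in Chd4KO replicates 1 to 4, against 446, 387, 353 and 383 TPM in Control replicates 1 to 4. The groups overlapped, and the highest value came from Chd4KO replicate 2, the library with the acinar transcripts, whose part in that value was not tested. The means were 498 ± 256 TPM in Chd4KO and 392 ± 38.6 TPM in Control (SD, n = 4 each; log2 difference 0.22 ± 0.33, SE, limma adjusted p = 0.726). Without Chd4KO replicate 2 the log2 difference was -0.09. The balance between these neighbours differed. C1qtnf1 reached 0.861, 0.109, 0.735 and 0.400 times the TPM of Lgals3bp in Chd4KO replicates 1 to 4, against 0.00273 to 0.00462 times in Control.

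Cant1 (ENSMUSG00000025575), a calcium-dependent nucleotidase of the secretory pathway that takes part in proteoglycan synthesis, starts closest to C1qtnf1 and did not pass the test either. It had 48.4, 56.1, 40.2 and 12.5 TPM in Chd4KO replicates 1 to 4, against 50.1, 40.5, 38.8 and 37.6 TPM in Control replicates 1 to 4. Chd4KO replicates 1 to 3 lay within or above the Control range and replicate 4 far below it. The log2 difference was -0.26 ± 0.42 (SE, limma adjusted p = 0.739), and 0.20 without Chd4KO replicate 4. C1qtnf1 had 8.79, 1.66, 6.78 and 8.68 times the TPM of Cant1 in Chd4KO replicates 1 to 4, against 0.0243 to 0.0421 times in Control, and 9116 bp separate the 2 genes.

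On the other side of the C1qtnf1 pair lies Engase (ENSMUSG00000033857), a cytosolic glycosidase that trims free N-glycans. It had 2.50, 2.24, 3.31 and 1.55 TPM in Chd4KO replicates 1 to 4, against 5.01, 4.36, 3.59 and 3.30 TPM in Control replicates 1 to 4. The groups touched, with Chd4KO replicate 3 just above the lowest Control library. The means were 2.40 ± 0.730 TPM in Chd4KO and 4.06 ± 0.775 TPM in Control (SD, n = 4 each), a log2 difference of -0.59 ± 0.21 (SE) that did not pass the test (limma adjusted p = 0.223). The difference was below 0 in all 18 alternatives that tested Engase and was called in 0 of them, with limma adjusted p from 0.168 to 0.466 and an unadjusted p of 0.0228 in the fit itself.

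Usp36 (ENSMUSG00000033909), a nucleolar deubiquitinase, had 28.0, 15.2, 11.6 and 3.95 TPM in Chd4KO replicates 1 to 4, against 14.1, 16.4, 14.5 and 19.5 TPM in Control replicates 1 to 4. Cyth1 (ENSMUSG00000017132), which activates ARF GTPases of membrane traffic, had 32.8, 24.0, 17.3 and 7.67 TPM in Chd4KO, against 30.4, 26.4, 24.6 and 23.3 TPM in Control. In both genes Chd4KO replicate 1 lay above the Control range, replicate 2 within it and replicates 3 and 4 below it. The log2 differences were -0.38 ± 0.46 for Usp36 and -0.50 ± 0.38 for Cyth1 (SE, limma adjusted p = 0.666 and 0.505). Timp2, next to Usp36, had 0.825, 1.42, 1.48 and 2.23 times its TPM in Chd4KO replicates 1 to 4, against 0.243 to 0.342 times in Control.

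**Figure D3:**
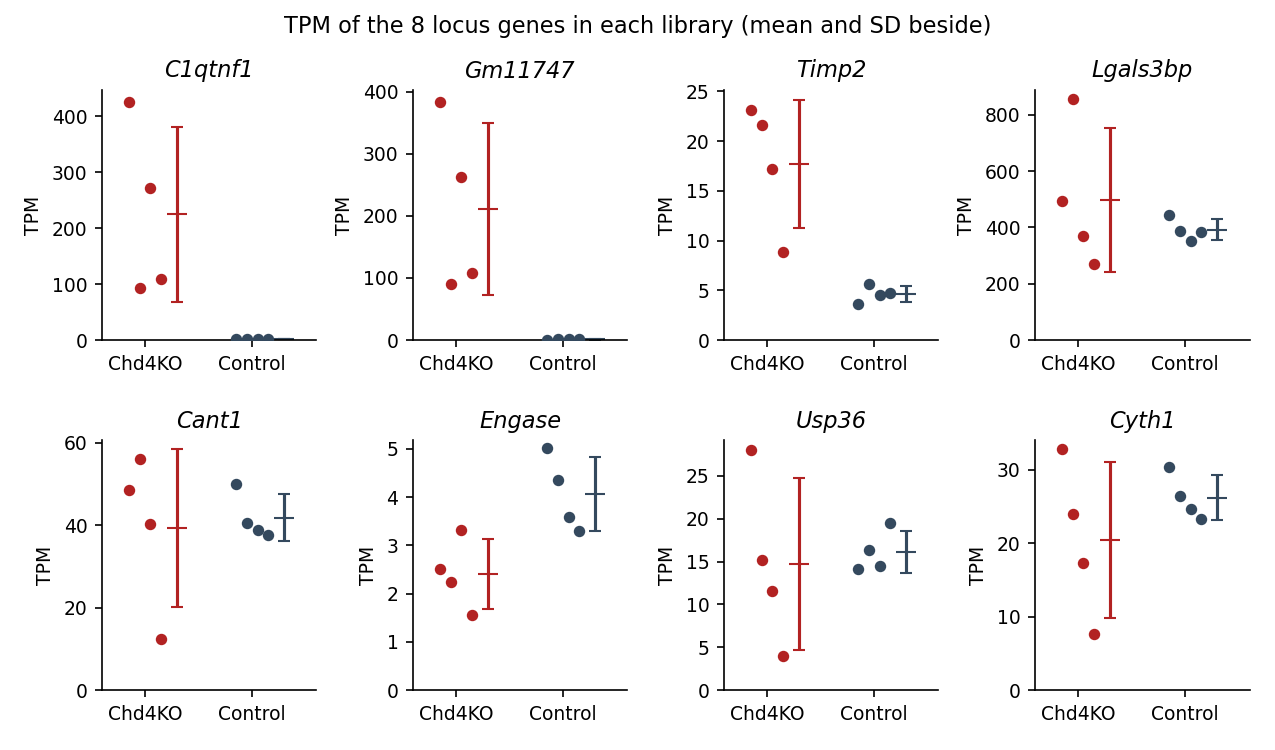
TPM of each of the 8 genes in each library, on linear axes that start at 0, with Chd4KO in red on the left and Control in dark blue-grey on the right of each panel, replicates 1 to 4 from left to right and mean ± SD beside them (n = 4 each). The groups are apart for C1qtnf1, Gm11747 and Timp2 and overlap for the other 5, in which Chd4KO replicate 4 is the lowest Chd4KO library.

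Chd4KO replicate 4 had the lowest value of all 4 Chd4KO libraries for Timp2, Lgals3bp, Cant1, Engase, Usp36 and Cyth1. It was also the library with the most insulin transcript, at 62.0% of TPM. It had 12702 genes at 1 TPM or more, against 14788 to 15923 in the other Chd4KO libraries. Rescaled without islet hormones and mitochondrial genes, replicate 4 was at 26.2 TPM for Timp2, 37.0 for Cant1, 11.7 for Usp36 and 22.8 for Cyth1, still the lowest of the Chd4KO libraries for these 4 genes. For Lgals3bp it was then at 803 TPM, above replicate 3 at 788 TPM, and for Engase at 4.59 TPM, above replicates 1 and 2. The median log2 difference of all tested genes was -0.25, and relative to it Timp2 differed by 1.91, Lgals3bp by 0.47, Cant1 by -0.01, Engase by -0.33, Usp36 by -0.12 and Cyth1 by -0.25.

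The order of the members by level differed between the groups mainly through the C1qtnf1 pair and Timp2. In Chd4KO the order by mean TPM was Lgals3bp, C1qtnf1, Gm11747, Cant1, Cyth1, Timp2, Usp36 and Engase. The ranges of the first 3 overlapped in turn and lay above that of Cant1, those of Cant1 to Usp36 overlapped in turn, and Engase lay below them all. In Control the order was Lgals3bp, Cant1, Cyth1, Usp36, Timp2, Engase, C1qtnf1 and Gm11747, and only Timp2 with Engase and C1qtnf1 with Gm11747 overlapped among neighbours in that order. C1qtnf1 made up 29.6, 8.03, 27.3 and 20.7% of the summed TPM of the 8 genes in Chd4KO replicates 1 to 4, against 0.221 to 0.369% in Control. Lgals3bp made up 34.3 to 73.9% in Chd4KO and 79.8 to 81.0% in Control.

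Beyond the members, the values along the chromosome were compared for every annotated gene within 1 Mb of C1qtnf1, chosen by position alone. Of 58 such genes other than C1qtnf1 and Gm11747, 31 were tested, and Timp2 was the only one called by limma (3.23%, against 2.97% of all tested genes). In 3 of the 31 the libraries of the groups were apart (9.68%, against 14.8% of all tested genes), Timp2 higher and Sgsh and Slc26a11 lower in Chd4KO. Both shares are near or below those of all tested genes. Their median log2 difference was -0.14, against -0.25 for all tested genes. The nearest annotated genes outside the span were Dnah17, at 0.633 to 1.45 TPM in Chd4KO and 1.16 to 1.47 TPM in Control, and Rbfox3, which at 0.160 to 0.901 TPM in Chd4KO and 0.0733 to 0.226 TPM in Control was not tested.

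Gaa, the lysosomal glucosidase, averaged 418 ± 130 TPM in Chd4KO and 302 ± 55.6 TPM in Control (SD, n = 4 each; log2 difference 0.42 ± 0.28, SE, limma adjusted p = 0.466) and was called in 2 of its alternatives, and it was picked out after its values were seen. Within 2 Mb, 68 genes were tested and 2 were called, Timp2 and Rptoros.

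**Figure D4:**
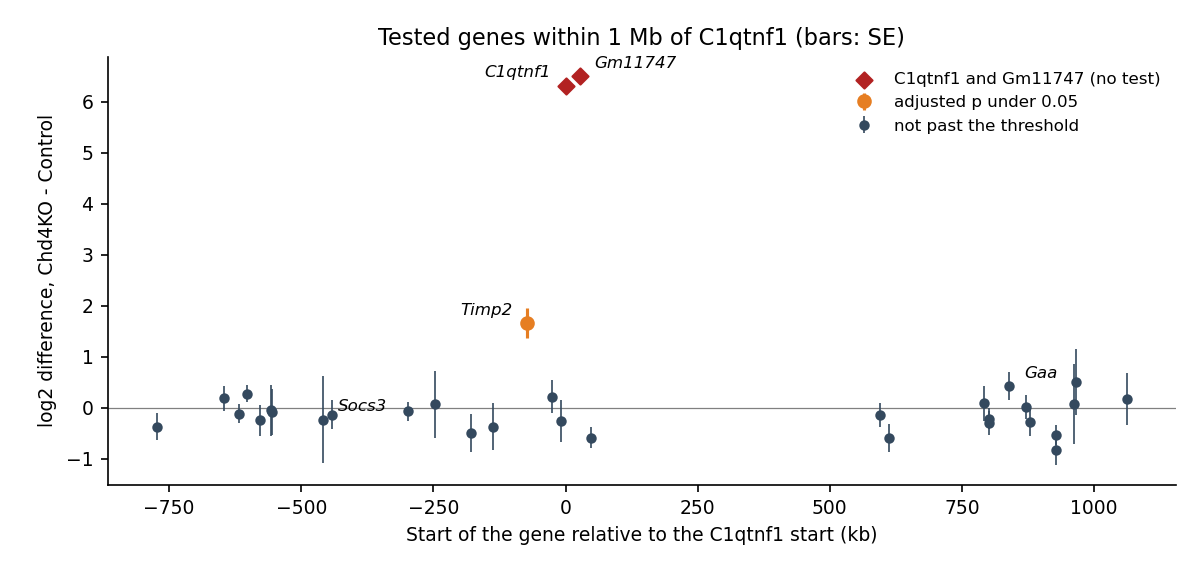
Log2 difference (Chd4KO minus Control, on log2(TPM + 1)) of tested genes within 1 Mb of C1qtnf1 against the distance of its start from that of C1qtnf1 in kb, with bars for the SE. C1qtnf1 and Gm11747 stand at 6.32 and 6.50, Timp2 at 1.66, and none of the other genes drawn is above 0.51.

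The family of C1qtnf1 was looked at through a list of 31 genes with a C1q-type head. Of the other 30, 7 were tested and 0 were called by limma (0 at an unadjusted p under 0.05 as well, where 16.2% of all tested genes were), with a median log2 difference of 0.00, against -0.25 for all tested genes. C1qtnf4, the paralog with 2 C1q heads, averaged 22.2 ± 8.16 TPM in Chd4KO and 16.4 ± 1.20 TPM in Control (SD, n = 4 each). C1qtnf12, also called adipolin, averaged 11.6 ± 1.42 TPM in Chd4KO and 10.6 ± 2.67 TPM in Control, and C1qtnf6 2.32 ± 0.815 TPM in Chd4KO and 3.65 ± 0.923 TPM in Control. The matrix protein Emilin1 averaged 136 ± 75.2 TPM in Chd4KO and 167 ± 18.1 TPM in Control (log2 difference -0.55 ± 0.50, SE, limma adjusted p = 0.565). The complement subunit C1qa averaged 107 ± 35.5 TPM in Chd4KO and 105 ± 11.8 TPM in Control (-0.04 ± 0.29, adjusted p = 0.947), while its partner C1qb did not exceed 3.90 TPM and C1qc 1.87 TPM in any library. Adipoq, the gene of adiponectin, was listed at 0 in all 8 libraries, as were C1qtnf5 and C1qtnf7. In Control, C1qtnf1 was thus among the lowest of the tested family members, and in Chd4KO it had the highest mean of them.

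**Figure D5:**
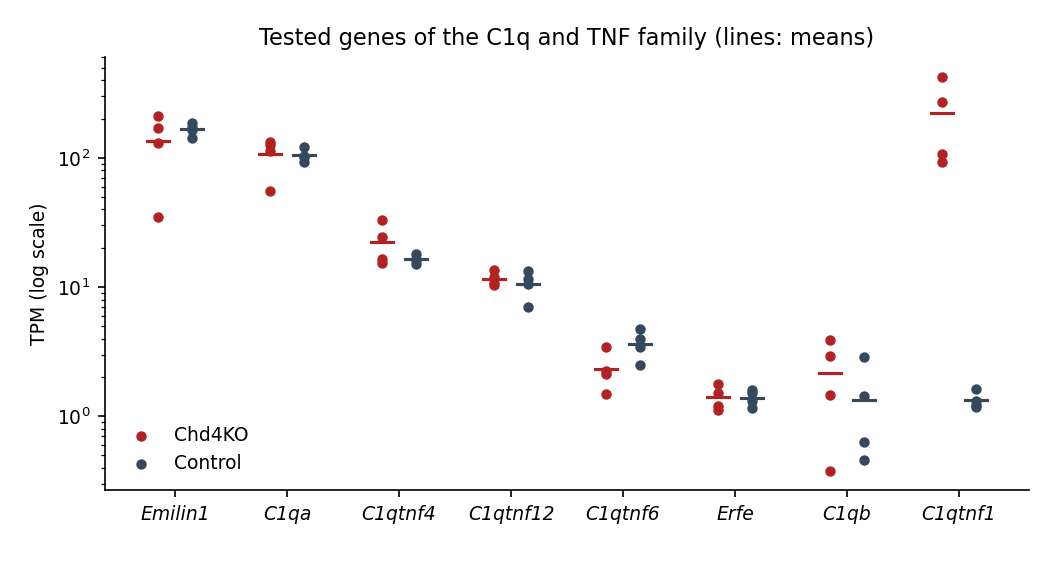
TPM on a log axis of the 8 tested genes of the C1q and TNF family in each library, Chd4KO in red to the left and Control in dark blue-grey to the right, with a line at each mean (n = 4 each). C1qtnf1 is the gene whose groups are apart, at 93.2 to 426 TPM in Chd4KO and 1.19 to 1.63 TPM in Control.

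The partners of the neighbours were looked at in the same way. Of 19 metalloproteinases, their inhibitors and related sheddases, 7 were tested, and 1 was called, Timp2 itself, the gene for which the list was drawn up (median log2 difference -0.10). Of all tested genes 2.97% were called. Timp1 did not exceed 0.477 TPM in any library, Timp4 averaged 4.49 ± 1.24 TPM in Chd4KO and 4.78 ± 0.507 TPM in Control (SD, n = 4 each), and Timp3 was at most 3.17 TPM and was not tested. Of the enzymes, Mmp11 averaged 24.2 ± 2.69 TPM in Chd4KO and 20.4 ± 1.59 TPM in Control (log2 difference 0.23 ± 0.17, SE, limma adjusted p = 0.487), and Mmp24 19.7 ± 10.96 TPM in Chd4KO and 18.7 ± 3.47 TPM in Control (-0.10 ± 0.41, adjusted p = 0.907). Mmp2 and Mmp14, the enzymes with which TIMP2 is best known to act, stayed at or below 0.150 and 0.232 TPM. Of 12 galectins and related genes, 5 were tested and 0 were called by limma or voom (median -0.33), with 1, Lgals4, at an unadjusted p under 0.05 (16.2% of all tested genes). Lgals3, the galectin that Lgals3bp is named for, did not exceed 0.552 TPM, and Lgals8 averaged 40.5 ± 15.7 TPM in Chd4KO and 35.7 ± 3.57 TPM in Control (0.09 ± 0.30, adjusted p = 0.882).

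Of the cytohesins, ARF GTPases and their regulators, 22 of 23 were found, 15 were tested and 0 were called (median log2 difference -0.25). The most abundant were Arf1, at 564 ± 136 TPM in Chd4KO and 661 ± 40.9 TPM in Control (SD, n = 4 each; log2 difference -0.26 ± 0.22, SE, limma adjusted p = 0.536), and Arf4, at 180.0 ± 30.3 TPM in Chd4KO and 210.4 ± 23.5 TPM in Control (-0.23 ± 0.19, adjusted p = 0.538). At an unadjusted p under 0.05 there were 2, Psd3 and Psd4, near the 16.2% of all tested genes, and voom called 0. Of 19 genes for nucleotidases, proteoglycan synthesis and the removal of glycans from misfolded proteins, 17 were tested and 0 were called by limma or voom (median -0.26), with 4, Entpd5, Entpd6, Xylt2 and Engase, at an unadjusted p under 0.05, as 16.2% of all tested genes were. Among these, Edem2 averaged 330.2 ± 38.0 TPM in Chd4KO and 287 ± 32.1 TPM in Control (0.20 ± 0.18, adjusted p = 0.557), and the ATPase Vcp 245 ± 116 TPM in Chd4KO and 314 ± 54.7 TPM in Control (-0.51 ± 0.40, adjusted p = 0.518).

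The genes most like C1qtnf1 over the 8 libraries, by Pearson correlation of log2(TPM + 1) among 9841 tested genes with a mean of at least 5 TPM outside the members, were Tcfl5 (r = 0.993), Bcan (0.991), Gstm3 (0.990), Ugt1a1 (0.989) and Prss23os (0.988). For Gm11747 it was 0.998. None of the 5 lies on chromosome 11. These values share the difference between the groups for which C1qtnf1 was chosen, and are a description. By deviations from the group means over the same 8 libraries, the most alike were Kcnab3os (r = 0.986), Rab3d (0.985), Pofut2 (0.980), Bcan (0.979) and Trim68 (0.978), against 0.943 for Gm11747. Bcan, a proteoglycan of brain matrix, was in both groups of 5. It had 27.5, 5.36, 15.5 and 7.42 TPM in Chd4KO replicates 1 to 4, high in 1 and 3 and low in 2 and 4 as C1qtnf1 was, against 0.0210 to 0.139 TPM in Control. With every Control library under 1 TPM, Bcan passed the filter through Chd4KO alone, as Tcfl5 and Gstm3 did. C1qtnf1 itself ran only from 1.19 to 1.63 TPM in Control, against 93.2 to 426 TPM in Chd4KO. All the correlations of deviations, that of Gm11747 among them, therefore rest mainly on the 4 Chd4KO libraries. The 5 genes are also the highest picked from 9841. Their values, and the place of Bcan in both groups of 5, are a description.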

How the data were processed

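For each library the authors deposited TPM values of 55487 Ensembl genes. The submitters' processing notes name HISAT2, HTSeq, Trimmomatic, FastQC and DESeq2 and the build mm10, with no version or role. Per the labels' protocols, cDNA came from a low-input SMART-Seq kit and libraries from a Nextera XT kit, which do not mark strand. Symbols, positions and exon lengths came from GENCODE M21 of the same build, which held 99.5% of the identifiers. TPM multiplied by exonic length came to whole multiples of 1 step for 98.5 to 98.7% of values above 0 (tolerance 0.05), which gave whole reads per gene. They served for depth and for an alternative test with limma's voom.

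The main test was limma 3.58.1 (R 4.3.3) on log2(TPM + 1) over all 15189 genes with at least 1 TPM in at least 4 libraries, with genotype as the only term and two-sided p-values with Benjamini-Hochberg adjustment. The fit was tested on simulated data. An adjusted p under 0.05 was a call, and fold errors are limma's SE. Chd4 was also compared by an exact permutation test. Replicate numbers did not pair the libraries. Nothing in the labels says that the libraries came from separate mice, so p-values measure the spread between these samples, which may be technical. Python 3.11.15 with pandas 2.3.3 and scipy 1.17.1 was used for the rest.

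The members, the lists, the markers and the tests were chosen with earlier results of these data known, and support nothing on their own. Named are all members, Chd4, every called gene within 1 Mb, the nearest tested gene on each side of C1qtnf1, the 5 genes most like C1qtnf1 by either measure, and from each list up to 4 called members and the 2 most abundant tested ones. Other genes named were added after their values were seen. Alternatives covered the pseudocount (0.1), the filter (none, and 5 TPM), scaling, variance models, a replicate block, voom, left-out libraries and the window (250 kb and 2 Mb). A withheld item is not reported here.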

Additional observations from a re-analysis of the deposited data

Results flagged for a closer look

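Among the 27 named genes, each looked at in both groups (54 groups of 4 libraries), a single library stood apart from the other 3 once. Arf4, an ARF GTPase partner of Cyth1, was at 176 TPM in Control replicate 2, against 218 to 226 TPM in the other Control libraries. Chance alone sets a library apart in this way in about 1 of 20 groups. None of the 8 locus genes had such a library in either group.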

How the results depend on the processing

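Over all genes, limma called 451 genes (233 higher and 218 lower in Chd4KO), 1364 with array weights, 740 with median of ratios scaling (475 higher, 265 lower), 782 with scaling without hormones and mitochondrial genes (442 higher, 340 lower), 220 at a minimum of 5 TPM, 43 without replicate 2 of both groups, and 135 to 630 with 1 library left out. With the replicate number as a block it called 274. Deviations of same-numbered libraries correlated at -0.02, 0.43, 0.08 and 0.04, so only the libraries numbered 2, which held the most acinar transcript of their groups, deviated together, and the numbers were not taken as pairs. Among the 6 neighbours the count was 1, 0 without replicate 2 of both groups, and 0 to 1 with 1 library left out, where Timp2 kept its call only without Chd4KO replicate 4. The count within 1 Mb was 1, 3 with array weights, 2 with median of ratios scaling, 2 within 2 Mb, 0 without replicate 2 of both groups and 0 to 1 with 1 library left out. The metalloproteinase list had 0 without replicate 2 of both groups and had 0 to 1 with 1 library left out. The cytohesin and ARF list had 1 call with array weights, 1 with median of ratios scaling and 0 to 1 with 1 library left out, and the nucleotidase and deglycosylation list 1 with array weights and 1 without Chd4KO replicates 2 and 4.

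The log2 differences of some genes that were not called turned round, and the cause was not tested. With array weights Cant1 was at 0.12 and Mmp24 at 0.19. With median of ratios scaling Cant1 was at 0.028, C1qa at 0.27, Mmp24 at 0.18, Arf1 at 0.045 and Arf4 at 0.072. Without hormones and mitochondrial genes C1qa was at 0.12 and Mmp24 at 0.041, and with voom C1qa was at 0.078. Without Chd4KO replicates 2 and 4, Cant1 was at 0.087, Usp36 at 0.17, Emilin1 at 0.18, C1qa at 0.20, Mmp24 at 0.37 and Vcp at 0.078. Without replicate 2 of both groups Lgals3bp was at -0.094, C1qa at 0.24 and Lgals8 at -0.042. With 1 library left out, Lgals3bp ran from -0.089 to 0.46, Cant1 from -0.50 to 0.20 (-0.51, in its main direction, without replicate 2 of both groups), Usp36 from -0.76 to 0.092, Emilin1 from -0.85 to 0.0065, C1qa from -0.17 to 0.25, Mmp24 from -0.40 to 0.32 and Lgals8 from -0.084 to 0.37. C1qtnf1 stayed between 5.92 and 7.22 and Gm11747 between 6.13 and 7.63 in the alternatives that tested them. Control values of this pair rest on 27 to 69 and 4 to 37 reads, which limits their fold differences.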
